A study of Mus musculus with 36 samples.

Results

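The genes described are 10 cytokines and chemokines of the brain: Cx3cl1, Cxcl12, Ccl12, Ccl2, Cxcl10, Ccl3, Ccl4, Csf1, Il1b and Tnf. They were chosen by name as rows of the deposited count table, whose mouse Ensembl identifiers were matched to symbols, and are 10 of its 56980 genes. All 10 were found, and 9 had enough reads to enter the test. Tnf was too low to measure, and 6 others (Ccl2, Ccl3, Ccl4, Il1b, Ccl12 and Cxcl10) were thinly counted.

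The data were gene counts from polyA-enriched brain RNA in 36 samples from mice aged 37 to 45 days, either Ndufs4 knockout (KO) or wild type (WT). Ndufs4 encodes a subunit of mitochondrial complex I, and its loss in mice is used as a model of Leigh syndrome. CP2, an inhibitor of that complex, or its vehicle was given daily by gavage on 3 days. The design text names hippocampus and cortex, while the tissue label reads brain. How much of either region went into a library is not given in the sources used here, and neither are the strain, the vehicle's makeup, the dose, or whether the allele is lost in all cells. Sample titles carry a letter F or M, which gave 8 groups. In F, the groups were WT vehicle, WT CP2, KO vehicle and KO CP2, with 5 libraries each. In M, WT CP2 and KO CP2 had 5 libraries each, while WT vehicle and KO vehicle had 3 each.

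Chemokines are small secreted proteins that bind receptors on the cell surface and direct where immune cells move. In brain, neurons make the membrane-bound chemokine Cx3cl1 (fractalkine), whose receptor Cx3cr1 sits on microglia, the resident macrophages of the tissue. Several CC and CXC chemokines, and the cytokines Tnf and interleukin 1 beta, are made at very low levels in healthy brain and are induced through NF-kappaB or interferon signalling when glia are activated. Csf1 acts through Csf1r, on which microglia depend for survival.

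Of the 10 genes, 8 had an entry in the RefSeq table of promoter sequences (build GRCm38.p6), and Ccl2 and Ccl4 had none. The 250 bases before the start site are shown for the 4 genes on which most of the results turn, so that a constitutively expressed chemokine can be read beside an inducible one. Sequences run 5′ to 3′ on the gene's strand. Capitals mark matches, on either strand, to the motifs searched: an NF-kappaB motif (GGG, any 2 bases, then TTTCC), a looser form of it (GGG and CCC separated by any 4 bases), the interferon response element (a pair of GAAA separated by any 2 bases), the GC box GGGCGG, the TATA box TATAAA and the cAMP response element TGACGTCA.
Cx3cl1, chr8:94771930-94772179, plus strand: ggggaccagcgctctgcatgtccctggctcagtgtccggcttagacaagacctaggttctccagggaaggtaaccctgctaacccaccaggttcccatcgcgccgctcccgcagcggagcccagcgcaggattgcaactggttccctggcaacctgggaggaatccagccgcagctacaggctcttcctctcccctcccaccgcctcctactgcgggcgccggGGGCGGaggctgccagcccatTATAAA
Cxcl12, chr6:117168285-117168534, plus strand: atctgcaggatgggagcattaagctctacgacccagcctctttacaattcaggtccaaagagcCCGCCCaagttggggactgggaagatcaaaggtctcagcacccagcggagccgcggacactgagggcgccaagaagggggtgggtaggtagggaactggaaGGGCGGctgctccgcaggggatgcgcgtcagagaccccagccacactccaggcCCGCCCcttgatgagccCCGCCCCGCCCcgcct
Ccl12, chr11:82101595-82101844, plus strand: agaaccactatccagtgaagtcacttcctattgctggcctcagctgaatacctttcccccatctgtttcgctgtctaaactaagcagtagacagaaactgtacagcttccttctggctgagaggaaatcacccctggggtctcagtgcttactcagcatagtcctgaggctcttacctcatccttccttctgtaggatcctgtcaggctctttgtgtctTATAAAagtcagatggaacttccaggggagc
Cxcl10, chr5:92348890-92349139, minus strand: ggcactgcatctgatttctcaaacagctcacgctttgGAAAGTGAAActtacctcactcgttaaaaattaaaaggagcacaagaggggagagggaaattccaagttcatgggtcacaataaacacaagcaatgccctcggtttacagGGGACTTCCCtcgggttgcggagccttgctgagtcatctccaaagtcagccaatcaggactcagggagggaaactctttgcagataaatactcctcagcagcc
The Cxcl10 window held an interferon response element match, GAAAGTGAAA, from -213 to -204 and a match to the looser NF-kappaB form, GGGACTTCCC, from -103 to -94, counted from the start site. The first motif was found in 2.98% of 32851 promoter windows of the same length, and the other in 10.3%. The Cxcl12 window held 5 GC boxes, a pair of which overlap by 1 base at -11, and the Cx3cl1 window held 1 GC box from -27 to -22 and TATAAA from -6 to -1. GGGCGG occurred in 32.7% of windows and TATAAA in 12.4%. The Ccl12 window held TATAAA from -31 to -26 and no other motif of the list. Among the windows not shown, Csf1 held a match to the stricter NF-kappaB motif (1.41% of windows) on the minus strand from -154 to -145, and Tnf held the looser form from -194 to -185. TGACGTCA (1.55% of windows) was in none of the 8. A match is a description of these letters only. The counts were made on GRCm39 per the submitters' processing notes, and the coordinates above belong to GRCm38.p6.

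Gene counts summed to between 46124548 and 88559920 per library (median 54749040). Ndufs4 was lower in KO under vehicle (log2 fold change -0.65, SE 0.070, edgeR adjusted p = 3.75e-07) and under CP2 (-0.45, SE 0.060, adjusted p = 3.21e-06). Xist ran from 439 to 798 CPM (counts scaled to library size) in F libraries, and Ddx3y from 61.8 to 84.5 CPM in M libraries. In KO CP2 M, 2 libraries stood apart: L291 had 47.3 CPM of Xist, where the other M libraries had at most 0.833, and L266 differed from the rest of its group by a mean chi-square of at least 98.9 per gene, against at most 49.5 between the others. The share of reads placed in no gene differed between groups, from 5.99% ± 0.740 (SD, n = 5) in WT vehicle F to 12.1% ± 0.885 (SD, n = 3) in KO vehicle M. Defining markers of brain cells were present: the 7 neuronal marker genes summed to at least 4482 CPM and the 14 microglial ones to at least 388 CPM in every library. Single markers of blood leukocytes were low. S100a8 (neutrophils) reached at most 1.22 CPM, Cd3e (T cells) at most 0.420 CPM and Ly6c2 (monocytes) at most 0.408 CPM. The thinly counted genes lie on the same scale. The 9 neutrophil markers summed to at most 4.61 CPM per library and the 8 T and NK cell markers to at most 15.7 CPM. Red cell genes stood higher: the 5 summed to 23.4 to 772 CPM per library, and 4 of 5 were lower in KO than in WT under vehicle (median -1.97). The part of retained blood and of leukocytes in the results was not tested.

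Levels between genes were compared as TMM-scaled CPM per kilobase of exon. Cx3cl1 led with a median of 142 CPM per kb over 36 libraries (97.5 to 225), followed by Cxcl12 with 6.94 CPM per kb (5.11 to 9.15) and Csf1 with 4.58 CPM per kb (3.35 to 5.69). The ranges of these 3 genes overlapped only between Cxcl12 and Csf1. Ccl12 had a median of 0.706 CPM per kb (0.0357 to 2.89), the highest of the thinly counted genes. The medians of Ccl4 (0.185), Cxcl10 (0.126), Ccl3 (0.116), Ccl2 (0.0844) and Il1b (0.0799 CPM per kb) lay within each other's ranges, and the median of Tnf was 0. In what follows, levels are TMM-scaled CPM, differences are log2 fold changes, and averages over F and M weight both letters equally.

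**Figure D1:**
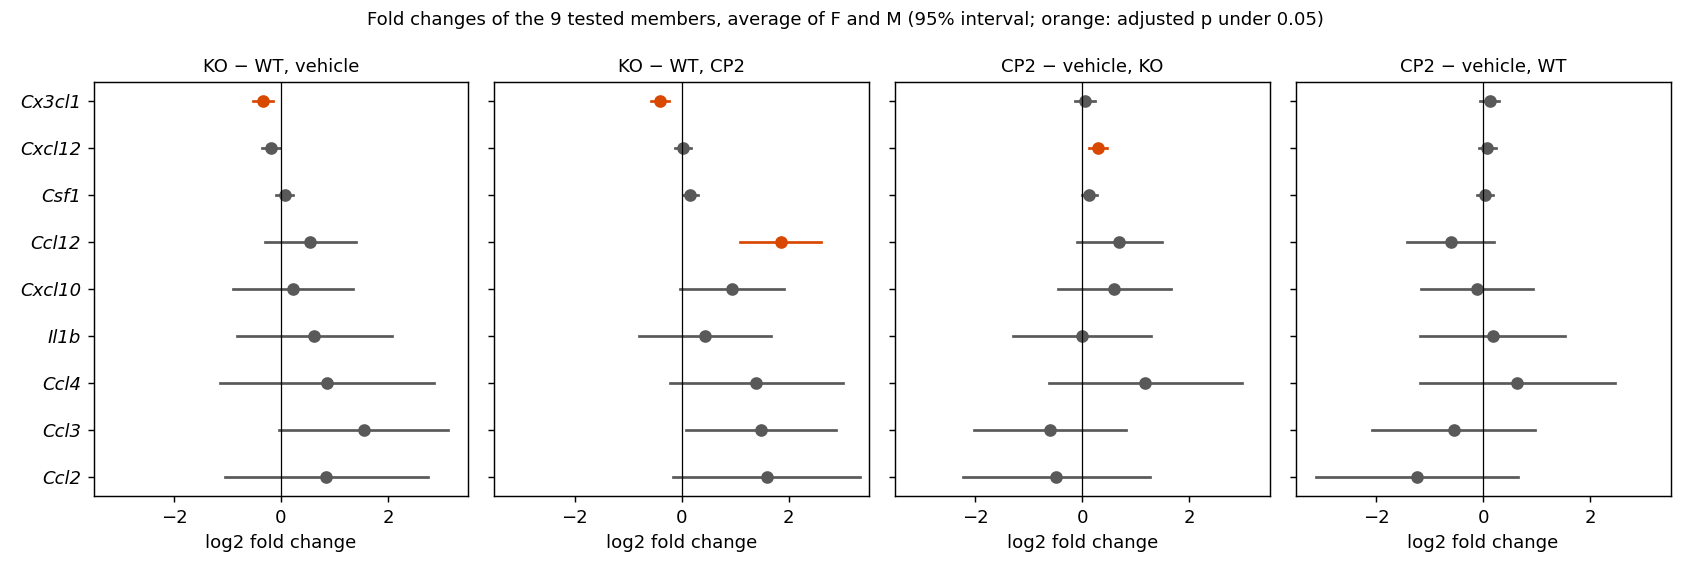
Log2 fold changes (horizontal axis) of the 9 tested genes in 4 comparisons, averaged over F and M. Points are edgeR estimates, bars are 95% intervals and orange marks an adjusted p under 0.05: Cx3cl1 lies at -0.34 and -0.41 in KO against WT, Ccl12 at 1.85 in KO against WT under CP2, and Cxcl12 at 0.29 in CP2 against vehicle within KO.

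Cx3cl1 (ENSMUSG00000031778), the neuronal ligand of the microglial receptor Cx3cr1, was lower in KO than in WT brain, both under vehicle and under CP2. In F mice given vehicle, the WT libraries held 671, 566, 579, 659 and 745 CPM and the KO libraries 406, 387, 486, 476 and 529 CPM. Every KO library was below every WT library. In F mice given CP2, the WT libraries held 884, 654, 672, 745 and 557 CPM and the KO libraries 383, 516, 673, 537 and 500 CPM. Here 1 KO library, L227, lay above 3 of the 5 WT libraries, and the other 4 KO libraries lay below all of them. In M mice given vehicle, the WT libraries held 545, 598 and 591 CPM and the KO libraries 494, 481 and 557 CPM, with 1 KO library above the lowest WT library. In M mice given CP2, the WT libraries held 613, 608, 692, 646 and 588 CPM and the KO libraries 563, 395, 459, 536 and 444 CPM, with no overlap.

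**Figure D2:**
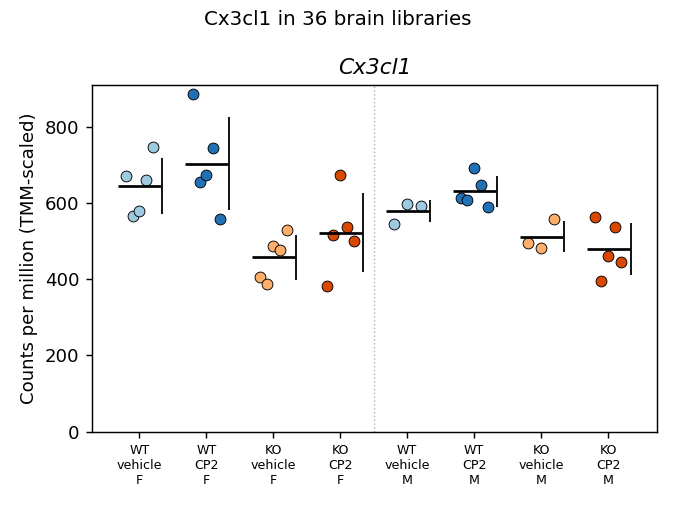
Cx3cl1 level (vertical axis, TMM-scaled CPM) in each of the 36 libraries, by genotype, treatment and title letter. Points are libraries, horizontal lines group means and vertical lines ± 1 SD: the 4 KO means lie between 457 and 522 CPM and the 4 WT means between 578 and 702 CPM.

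Ordered by mean, Cx3cl1 stood at 702 ± 121 CPM in WT CP2 F, 644 ± 73.4 in WT vehicle F, 630 ± 40.7 in WT CP2 M, 578 ± 29.0 in WT vehicle M, 522 ± 104 in KO CP2 F, 511 ± 40.4 in KO vehicle M, 479 ± 68.8 in KO CP2 M and 457 ± 59.0 in KO vehicle F (SD, n = 5, or 3 under M vehicle). The 4 WT means were the 4 highest, and each neighbouring pair in this order had overlapping ranges. Averaged over F and M, the log2 fold change of KO against WT was -0.34 under vehicle (SE 0.095, edgeR adjusted p = 0.0270), which is 1.26-fold lower, and -0.41 under CP2 (SE 0.082, edgeR adjusted p = 0.000884), which is 1.33-fold lower. Cx3cl1 was the only 1 of the 9 tested genes called under vehicle, where 6.67% of all 25601 tested genes were called (2.87% higher and 3.8% lower). Under CP2, 2 of the 9 were called, Cx3cl1 lower and Ccl12 higher, where 11.6% of all genes were called (5.54% higher and 6.07% lower). With 9 genes tested, these counts lie near the background and say nothing particular about the set.

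By letter, the KO difference of Cx3cl1 was -0.50 in F under vehicle (SE 0.116, edgeR adjusted p = 0.0119, background 4.96% of genes called), -0.43 in F under CP2 (adjusted p = 0.0441, background 2% of genes called) and -0.39 in M under CP2 (adjusted p = 0.0262, background 9.99% of genes called). In M under vehicle it was -0.18 with an adjusted p of 0.709 by edgeR (background 0.516% of genes called). The difference between F and M under vehicle was itself not called (-0.32, 95% interval -0.70 to 0.07, edgeR adjusted p = 0.709), nor was that of any other of the 9 genes, where 0.102% of all genes were called. CP2 did not move Cx3cl1 past the threshold in either genotype: 0.05 in KO (95% interval -0.13 to 0.23) and 0.12 in WT (-0.06 to 0.31).

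The share of reads in no gene moved with the vehicle comparison, with 9.24% ± 2.56 (SD, n = 5) among the KO libraries of F and 5.99% among the WT ones. It also differed under CP2, in opposite directions by letter. In M under CP2 it was 7.33% ± 1.40 in KO and 11.5% ± 1.64 in WT (SD, n = 5). In F under CP2 it was 7.54% ± 2.13 in KO and 6.02% ± 0.714 in WT (SD, n = 5). As a covariate it left 862 genes called in KO against WT within M under CP2, against 2558 in the main fit. With that share as a covariate the vehicle difference of Cx3cl1 was -0.20 (edgeR adjusted p = 0.397), while the CP2 difference was -0.49 (adjusted p = 8.64e-05). Leaving out 1 library ended the vehicle call in 6 of 36 cases (adjusted p up to 0.0805): WT vehicle F L252 and L296, KO vehicle M L310 and L319, and WT vehicle M L300 and L303. The CP2 call held without each of the 36 libraries and without L266 and L291 together (-0.41, edgeR adjusted p = 0.00231), but the CP2 call within M did not hold without those 2 (-0.39, adjusted p = 0.0754) or without L291, L292, L299 or WT L263 alone (adjusted p up to 0.0872). It was also lost without the filter (adjusted p = 0.0652) and with the title number as a covariate (adjusted p = 0.0640), and was -0.62 with the share of reads in no gene as a covariate (edgeR adjusted p = 0.00701). The call in F under CP2 held in 13 of 36 such cases and under 2 of 8 alternatives (adjusted p up to 0.229). The call in F under vehicle was lost without WT L296 (adjusted p = 0.0502) and with the share of reads in no gene as a covariate (-0.32, adjusted p = 0.253).

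None of the 7 neuronal markers was called in KO against WT, under vehicle or under CP2, and their median log2 fold changes were 0.07 and -0.02. Their summed level was 4482 to 5848 CPM in KO vehicle F and 5631 to 6381 in WT vehicle F. In M under vehicle the order was the other way, with 6088 to 6369 CPM in KO and 5168 to 5564 in WT. Under CP2 it was 5095 to 7018 CPM in KO F and 5850 to 6732 in WT F, and 5403 to 6383 in KO M and 5325 to 5946 in WT M. Of 7 hippocampal CA markers, 0 were higher and 2 lower in KO in F under vehicle (median -0.47, 1 positive), and 0 were called in M under vehicle (median 0.55, 7 positive). With a score of hippocampal markers as a covariate, the averaged difference of Cx3cl1 was -0.36 under vehicle (edgeR adjusted p = 0.00421) and -0.44 under CP2 (adjusted p = 3.78e-05). In bulk tissue, fewer cells of a type and less RNA per cell cannot be told apart. Across the 36 libraries, the genes whose log2 CPM was most like that of Cx3cl1 were Dmtn (Pearson r = 0.96), which encodes the actin-binding protein dematin, Sept5 (r = 0.928), a septin of nerve terminals, and Cap2 (r = 0.927), a regulator of actin. These values describe 36 points that share groups, library depth and scaling, among 15419 candidate genes. Dmtn was also lower in KO, by -0.22 under vehicle (edgeR adjusted p = 0.0272) and by -0.25 under CP2 (adjusted p = 0.00151). Because Dmtn was picked by likeness over these libraries, a shared KO difference is partly built into the choice.

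The receptor of Cx3cl1, Cx3cr1, was not called lower in KO. Its level was 57.7 ± 3.49 CPM in KO CP2 F and 50.8 ± 9.99 in KO vehicle F (SD, n = 5). In M it was 63.2 ± 5.07 CPM in KO CP2 (SD, n = 5) and 49.2 ± 3.71 in KO vehicle (SD, n = 3). Cx3cr1 rose with CP2 in KO by 0.27 (SE 0.073, edgeR adjusted p = 0.0241), and KO against WT differed by -0.06 under vehicle (adjusted p = 0.694) and 0.18 under CP2 (adjusted p = 0.0745) on average. Within M under CP2, Cx3cr1 was higher in KO by 0.36 (SE 0.095, edgeR adjusted p = 0.011), and within F the value was 9e-04. Of the genes for the sheddases and other enzymes that process or release these ligands, such as Adam10 and Adam17, 0 of 13 tested (of 14 listed) were called by edgeR in either genotype comparison averaged over F and M, and within M under CP2 1 was higher.

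Cxcl12 (ENSMUSG00000061353), the ligand of Cxcr4 that guides neural progenitors and is made by endothelium, meninges and some neurons, was higher after CP2 than after vehicle in KO brain. The M vehicle KO libraries held 45.1, 45.5 and 48.3 CPM and the M CP2 KO libraries 71.6, 51.4, 64.1, 60.3 and 63.0 CPM. All 5 CP2 libraries lay above all 3 vehicle libraries. In F, the KO vehicle libraries held 58.5, 51.7, 41.8, 45.6 and 68.1 CPM and the KO CP2 libraries 58.3, 53.6, 55.9, 74.8 and 54.5 CPM. These overlapped over most of their range. WT libraries held 51.8 to 59.2 CPM (F vehicle), 54.1 to 72.1 (F CP2), 52.4 to 60.5 (M vehicle) and 47.9 to 61.8 CPM (M CP2), so KO vehicle M (mean 46.3 ± 1.74 CPM, SD, n = 3) was the lowest group and did not overlap WT vehicle M (56.7 ± 4.09, SD, n = 3), although that difference was not called (-0.29, edgeR adjusted p = 0.372).

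Ordered by mean, Cxcl12 stood at 63.7 CPM in WT CP2 F, 62.1 in KO CP2 M, 59.4 in KO CP2 F, 56.7 in WT vehicle M, 56.2 in WT vehicle F, 56.0 in WT CP2 M, 53.1 in KO vehicle F and 46.3 in KO vehicle M. Neighbours in this order overlapped in range. CP2 against vehicle in KO gave 0.29 averaged over F and M (SE 0.081, edgeR adjusted p = 0.0321, 1.22-fold), 0.42 in M (SE 0.124, edgeR adjusted p = 0.0375) and 0.16 in F (adjusted p = 0.624). Cxcl12 was the 1 of 9 called in this comparison, where 3.91% of all genes were called (2.08% higher and 1.84% lower, with 5.1% in M and 0.0859% in F). The difference between F and M was not called (-0.26, 95% interval -0.59 to 0.07), with 0 of 9 genes and 0.691% of all genes called, and CP2 in WT gave 0.08 (95% interval -0.08 to 0.25). The interaction of genotype and CP2 was 0.21 (95% interval -0.02 to 0.44, edgeR adjusted p = 0.402).

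The share of reads in no gene was 12.1% in KO vehicle M and 7.33% ± 1.40 (SD, n = 5) in KO CP2 M. With it as a covariate Cxcl12 gave 0.24 (edgeR adjusted p = 0.579), and 0 of 25601 genes were called in that comparison. Leaving out 1 library ended the call in 9 of 36 cases (adjusted p up to 0.0786): KO CP2 F L233, KO vehicle F L281 and L282, KO CP2 M L266, L292 and L299, and KO vehicle M L310, L319 and L322. The 6 M libraries among these also ended the call within M (adjusted p up to 0.122). Without L266 and L291 together, the average was 0.30 (edgeR adjusted p = 0.0499) and the M value 0.43 (adjusted p = 0.0811). The call within M held under 4 of 8 alternatives. It was also lost with the share of reads in no gene (0.34, edgeR adjusted p = 0.527), the hippocampal marker score (0.41, adjusted p = 0.0761) and the title number (0.39, adjusted p = 0.116) as covariates. Within KO, every CP2 library had a lower title number than every vehicle library of the same letter. Differences by CP2 and by title number therefore cannot be told apart within KO, for Cxcl12 or any other gene. Averaged over F and M, edgeR called 51 genes in this comparison with the title number as a covariate, against 1002 in the main fit.

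**Figure D3:**
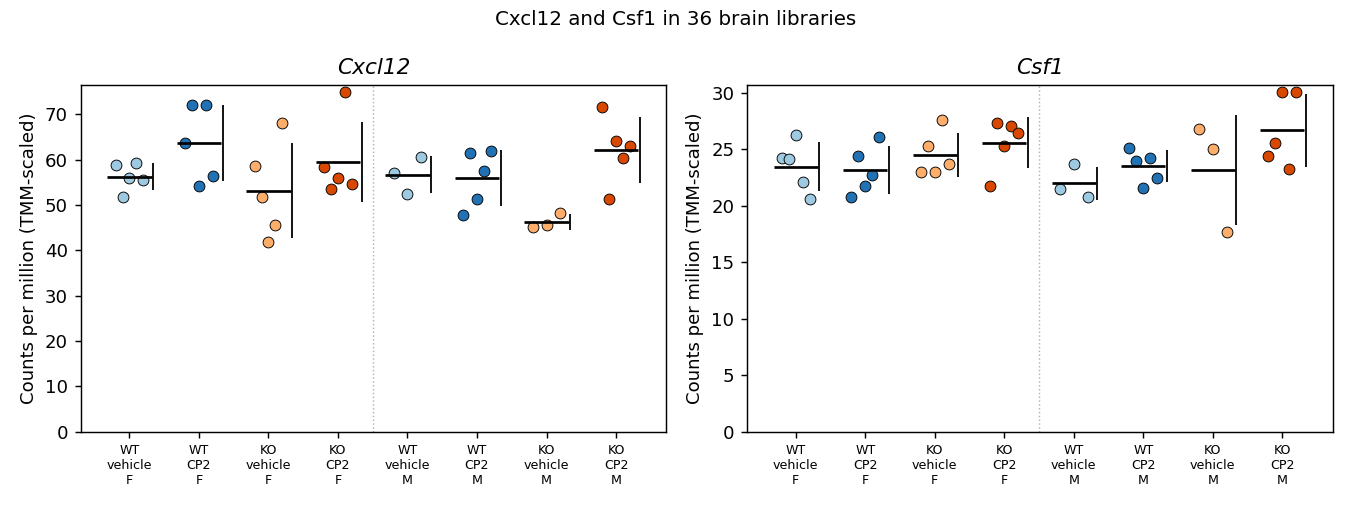
Levels of Cxcl12 (left) and Csf1 (right) in each of the 36 libraries (vertical axes, TMM-scaled CPM), by genotype, treatment and title letter. Points are libraries, horizontal lines group means and vertical lines ± 1 SD: KO vehicle M is the lowest Cxcl12 group at 46.3 CPM, and the Csf1 means lie between 22.0 and 26.7 CPM.

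Of the receptors of Cxcl12, Cxcr4 had group means of 2.17 to 3.6 CPM and the scavenging receptor Ackr3 9.30 to 11.7 CPM. Neither was called, with Cxcr4 at 0.58 (SE 0.204) in KO against WT under CP2 (edgeR adjusted p = 0.0582). Markers of cells that make Cxcl12 were not called with CP2 in KO (0 of 7 endothelial and 0 of 7 meningeal genes). Within M, however, all 7 meningeal genes were positive (median 0.641), as were 5 of 7 endothelial ones (median 0.149). Within F the medians were -0.142 and -0.008. The meningeal genes summed to at least 169 CPM in each KO CP2 M library and to 109 to 165 CPM in KO vehicle M. The endothelial genes summed to 209 to 226 CPM in KO vehicle M, and the lowest KO CP2 M library had 202 CPM. Of 6 oligodendrocyte markers, 4 rose with CP2 in KO. Of 6 choroid plexus markers, 0 were called within either letter. All 6 were positive in M (median 0.998) and 0 in F (median -0.348). They summed to 592 to 1106 CPM in KO vehicle M and to 196 to 2777 CPM in KO CP2 M. Of 7 striatal markers, 0 were called, with 7 positive in F (median 0.364) and 1 in M (median -0.2). The part of these cell types and regions in the Cxcl12 value was not tested. Genes most like Cxcl12 across the 36 libraries were Dennd5a (r = 0.702), Enpp4 (r = 0.701) and Tmem98 (r = 0.7).

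Ccl12 (ENSMUSG00000035352), a monocyte chemoattractant that binds Ccr2 and is made by macrophages and microglia, was higher in KO than in WT brain under CP2. In F mice given CP2, WT libraries held 7, 18, 20, 8 and 13 raw reads and KO libraries 82, 46, 72, 50 and 105, or 0.141 to 0.345 CPM against 0.761 to 1.55 CPM. The lowest KO library had more than any WT library. In M mice given CP2, WT libraries held 13, 29, 13, 1 and 2 reads and KO libraries 24, 30, 46, 38 and 22. On the CPM scale 1 KO library, L299 (0.348 CPM), fell under the highest WT library, L262 (0.367 CPM).

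In F mice given vehicle, WT libraries held 28, 11, 8, 26 and 33 reads of Ccl12 and KO libraries 40, 22, 30, 32 and 6, and these overlapped. In M mice given vehicle, WT libraries held 23, 12 and 10 reads and KO libraries 18, 17 and 40, which overlapped too. Ordered by mean, Ccl12 stood at 1.23 ± 0.317 CPM in KO CP2 F, 0.504 ± 0.137 in KO CP2 M, 0.489 ± 0.215 in KO vehicle M, 0.485 ± 0.256 in KO vehicle F, 0.399 ± 0.227 in WT vehicle F, 0.277 ± 0.134 in WT vehicle M, 0.234 ± 0.0879 in WT CP2 F and 0.198 ± 0.157 in WT CP2 M (SD, n = 5, or 3 under M vehicle). KO CP2 F lay above the next group, KO CP2 M, without overlap, and all other neighbours overlapped. It did overlap KO vehicle F, whose highest library held 0.784 CPM, above the lowest KO CP2 F library at 0.761 CPM.

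**Figure D4:**
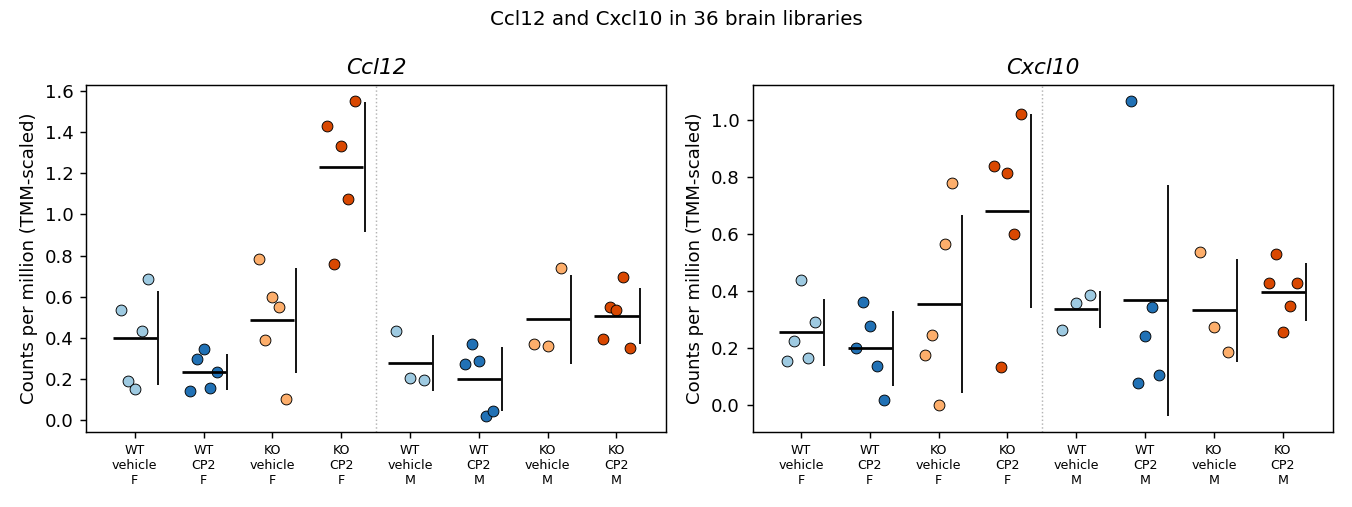
Levels of Ccl12 (left) and Cxcl10 (right) in each of the 36 libraries (vertical axes, TMM-scaled CPM), by genotype, treatment and title letter. Points are libraries, horizontal lines group means and vertical lines ± 1 SD: Ccl12 is highest in KO CP2 F, at 0.761 to 1.55 CPM, and 1 WT CP2 M library reaches 1.07 CPM of Cxcl10.

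Averaged over F and M, Ccl12 differed by 1.85 between KO and WT under CP2 (SE 0.372, edgeR adjusted p = 0.000734), which is 3.61-fold (95% interval of the log2 value 1.10 to 2.60). It was 2.38 in F (SE 0.529, edgeR adjusted p = 0.0122) and 1.32 in M (SE 0.526, adjusted p = 0.108). The F call was lost with the title number as a covariate (2.14, edgeR adjusted p = 0.0917). The difference between letters was not called (1.06, 95% interval -0.43 to 2.55), with 0 of 9 genes and 0.82% of all genes called. Under vehicle the same difference was 0.55 (95% interval -0.30 to 1.40, edgeR adjusted p = 0.481). It was 0.088 with the share of reads in no gene as a covariate and 0.34 without KO M L322. CP2 against vehicle within KO gave 1.34 in F (SE 0.505, unadjusted p = 0.0112, edgeR adjusted p = 0.279) and 0.04 in M (95% interval -1.14 to 1.22). The interaction of genotype and CP2 was 1.30 (SE 0.559, unadjusted p = 0.0252, edgeR adjusted p = 0.259), so the larger KO difference under CP2 than under vehicle did not pass the threshold. In that test 0 of the 9 genes were called, against 0.715% of all genes, and 1 of the 9 (Ccl12) had an unadjusted p under 0.05, as had 3736 of all 25601 genes, a share much like it. The averaged CP2 call held without each of the 36 libraries (adjusted p 0.000374 to 0.00187) and, without L266 and L291, at 1.89 (edgeR adjusted p = 0.00207).

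Microglial markers were also higher in KO than in WT under CP2 on average. Of 14, 7 were higher and 0 lower (median 0.26, all genes 0.01). Within F, 0 of 14 were called (9 positive, median 0.03), and within M 9 of 14 were higher (median 0.42). On average, 7 of 12 markers of disease-state microglia were higher (median 0.46), where 5.54% of all genes were. Within F 1 was higher (median 0.23, 2% of all genes called), and within M 7 were (median 0.704, 9.99% called). The 12 summed to 1940 to 2530 CPM in KO CP2 F and 2164 to 2545 in WT CP2 F. In M under CP2 they summed to 2014 to 2671 CPM in KO and 1645 to 2259 in WT. Under vehicle, 2 of the 12 were higher on average (median 0.238), where 2.87% of all genes were. The 14 include the receptors Cx3cr1 and Csf1r. P2ry12, a purine receptor that marks resting microglia, was higher by 0.40 (SE 0.083, edgeR adjusted p = 0.00106), while Tmem119, another microglial marker, gave -0.04 (adjusted p = 0.832). Under vehicle, 0 of the 14 were higher in KO and 1, Tmem119, was lower (-0.34, edgeR adjusted p = 0.0278). With CP2 in KO, 5 of the 14 were higher, where 2.08% of all genes were, and all 14 were positive (median 0.304). The 14 genes summed to 490 to 677 CPM in KO CP2 F and 498 to 572 in WT CP2 F, where Ccl12 did not overlap. They summed to 522 to 697 CPM in KO CP2 M and 407 to 529 in WT CP2 M. The 10 macrophage markers from the brain borders and blood had 0 called on average, with Ly6c2 under 0.41 CPM throughout. By letter they went opposite ways. Within M 1 was higher (9 positive, median 0.452), and within F 0 were called (2 positive, median -0.385). The share of reads in no gene also differed between KO and WT in M under CP2, and the marker calls were not repeated with it as a covariate. The part of microglial numbers in the Ccl12 difference was not tested. Genes most like Ccl12 over the 36 libraries were Snrpb2 (r = 0.674), a splicing protein, Plek (r = 0.659), the platelet and leukocyte protein pleckstrin, and Coro1c (r = 0.631), an actin-binding coronin. All 3 were higher in KO under CP2, by 0.36, 0.44 and 0.17 (edgeR adjusted p = 8.71e-05, 3.08e-05 and 0.00227). They were picked by likeness over the same libraries, so sharing the Ccl12 difference is partly built into the choice.

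Ccl2 (ENSMUSG00000035385), the main monocyte chemoattractant and also a ligand of Ccr2, had at most 22 reads in any library and 0 reads in 10 of 36. WT vehicle F held 12 reads in 1 library and 0 in the other 4, and KO vehicle F held 21, 8, 5, 2 and 12 reads. WT vehicle M held 22, 16 and 6 reads and KO vehicle M 14, 1 and 20. The fitted difference under vehicle was 1.92 in F and -0.24 in M, with SEs of 1.22 and 1.46. Under CP2, WT libraries held 0 to 9 reads and KO libraries 0 to 20. The KO difference was 0.84 under vehicle (95% interval -1.05 to 2.74) and 1.59 under CP2 (-0.15 to 3.33), so neither a rise of several fold nor its absence could be shown at this depth. Single libraries moved both: the vehicle value was 3.06 without WT F L252 (edgeR adjusted p = 0.0908), and the CP2 value 2.85 without WT M L263 (adjusted p = 0.0537). With the share of reads in no gene as a covariate the vehicle value was 0.43. A gene on the opposite strand, Gm17268, overlaps Ccl2, and with the strand setting of the counting not given in the sources used here their reads cannot be told apart. The receptor Ccr2 had group means of 0.268 to 0.617 CPM and was not called.

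Cxcl10 (ENSMUSG00000034855), an interferon-inducible chemokine for T cells that binds Cxcr3, was counted at 0 to 69 reads. In F mice given CP2, WT libraries held 10, 22, 16, 7 and 1 reads and KO libraries 48, 8, 44, 28 and 69. In this group 4 of 5 KO libraries lay above all WT libraries, and 1, L216, lay among them. In M mice given CP2, WT libraries held 51, 6, 11, 18 and 5 reads and KO libraries 26, 29, 22, 19 and 27, with WT on both sides of KO. Under vehicle, F libraries held 8 to 23 (WT) and 0 to 45 (KO) reads, and M libraries 14 to 21 (WT) and 10 to 26 (KO).

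The KO difference of Cxcl10 under CP2 was 1.77 in F (SE 0.691, unadjusted p = 0.0146, edgeR adjusted p = 0.180), 0.12 in M and 0.94 on average (95% interval -0.03 to 1.91, adjusted p = 0.217), and none was called. Part of the gene lies opposite to Art3, with which 3.59% of its 50-base stretches were shared. Its receptor Cxcr3 was too low to test. The genes most like Cxcl10 were Mamdc2 (r = 0.681), C1qtnf6 (r = 0.627) and the interferon-induced Ifit3b (r = 0.617) over the 36 libraries. Ifit3b was higher in KO under CP2 by 0.99 (SE 0.175, edgeR adjusted p = 0.000183). Its choice by likeness to Cxcl10 over the same libraries makes this no separate support for a Cxcl10 difference.

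Ccl3 and Ccl4, chemokines that activated microglia release, were counted at no more than 50 and 43 reads. For Ccl3 (ENSMUSG00000000982), KO vehicle F libraries held 29, 8, 50, 1 and 6 reads and WT vehicle F libraries 2, 3, 2, 0 and 5. In raw reads 4 of 5 KO libraries lay above all WT libraries, and on the CPM scale 3 did. The difference of 2.93 (SE 1.02, unadjusted p = 0.00629) gave an edgeR adjusted p of 0.0813, while DESeq2 called it (3.02, adjusted p = 0.0277). It was not called under the other 6 alternatives, where it ran down to 1.58 (edgeR adjusted p = 0.652) with the share of reads in no gene as a covariate, nor with a library left out (adjusted p 0.0516 to 0.287). In M under vehicle, WT held 19, 5 and 4 reads and KO 5, 11 and 13. Under CP2, Ccl3 ran from 0 to 17 reads in WT and from 1 to 28 in KO (1.48 on average, SE 0.694, edgeR adjusted p = 0.173).

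For Ccl4 (ENSMUSG00000018930), KO CP2 M libraries held 1, 20, 24, 23 and 26 reads and WT CP2 M libraries 1, 10, 8, 8 and 0. Thus 4 of 5 KO libraries were above all WT libraries, and L266 was not. The KO difference under CP2 was 1.39 (95% interval -0.22 to 3.01, edgeR adjusted p = 0.287), and counts overlapped in the other 3 comparisons of KO with WT. The receptor Ccr1, bound by Ccl3, gave 0.86 (SE 0.303, edgeR adjusted p = 0.0567) in KO against WT under CP2, at group means of 0.276 to 0.830 CPM.

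**Figure D5:**
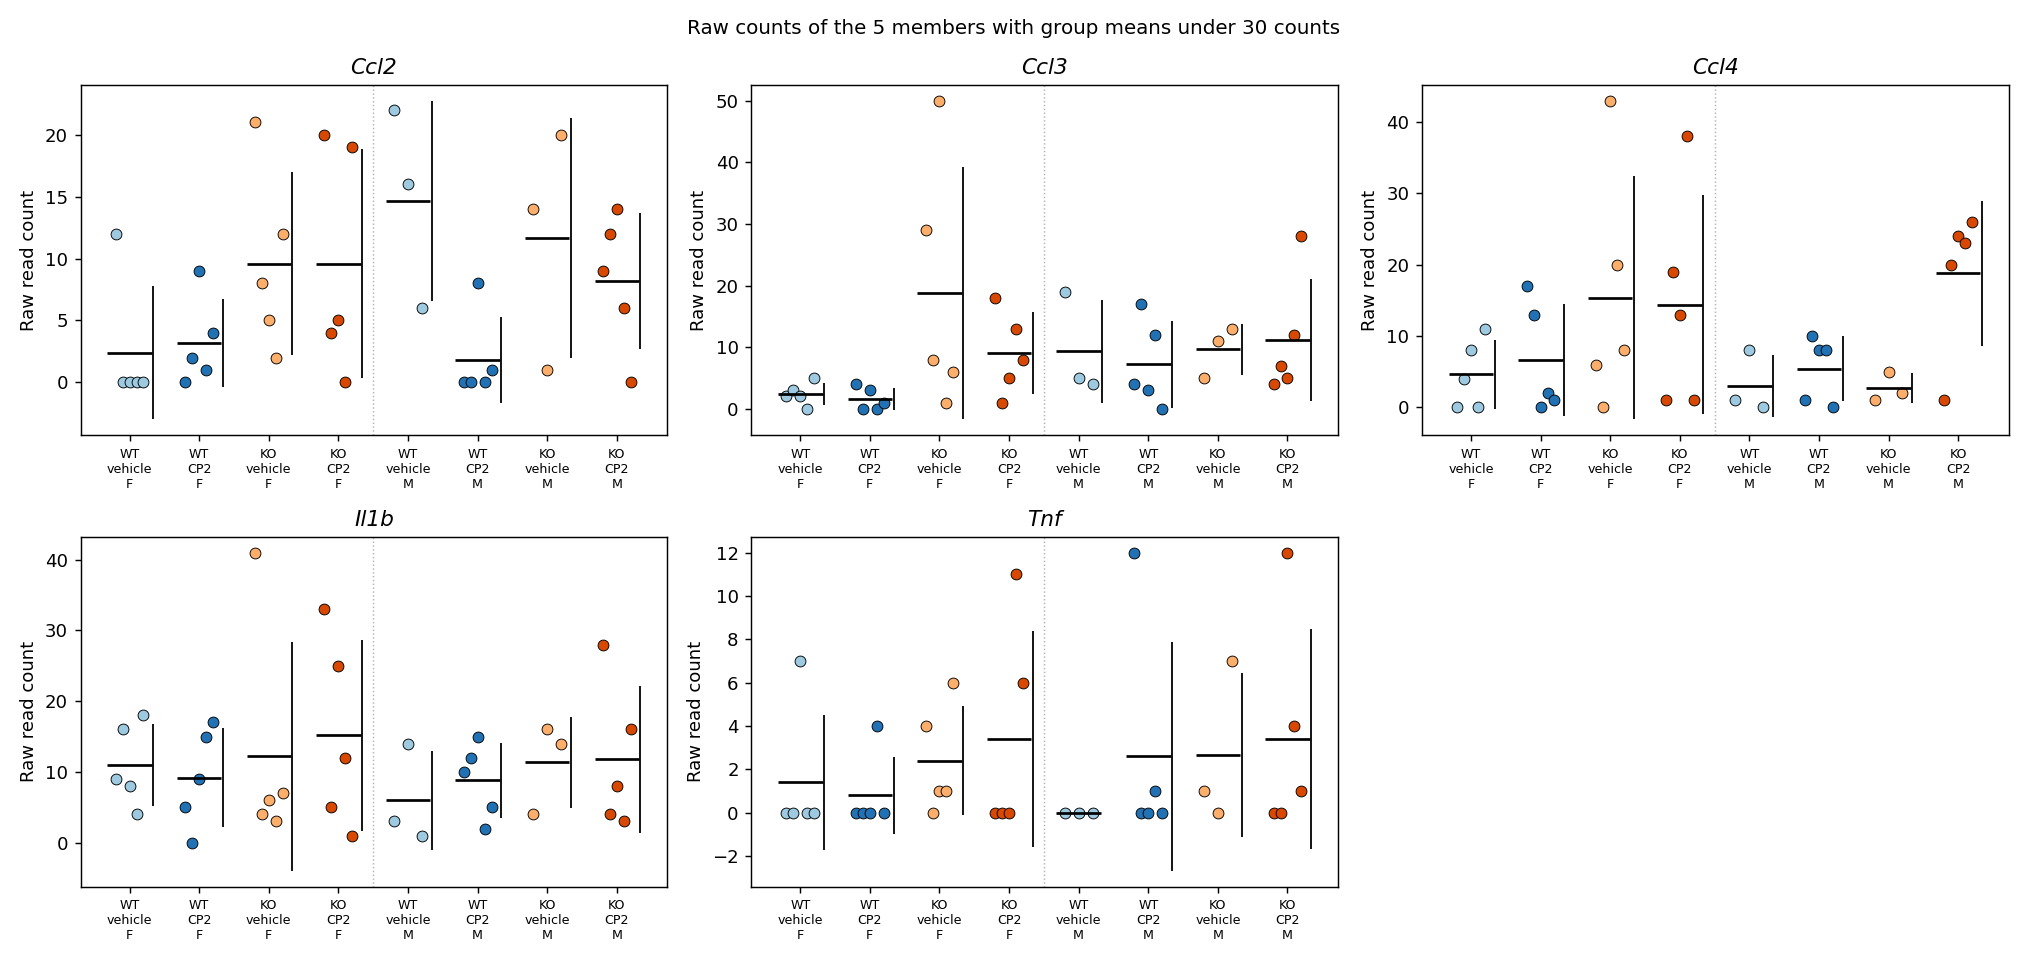
Raw read counts (vertical axes) of Ccl2, Ccl3, Ccl4, Il1b and Tnf in each of the 36 libraries, by genotype, treatment and title letter. Points are libraries, horizontal lines group means and vertical lines ± 1 SD: all group means lie under 30 reads, with single libraries at 50 (Ccl3), 43 (Ccl4) and 41 (Il1b).

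Csf1 (ENSMUSG00000014599), the growth factor of microglia and other macrophages, was counted at 959 to 2581 reads and changed little. In WT it ran from 20.6 to 26.2 CPM in F vehicle, 20.8 to 26.1 in F CP2, 20.8 to 23.6 in M vehicle and 21.6 to 25.1 in M CP2. In KO it ran from 23.0 to 27.6 CPM in F vehicle, 21.8 to 27.3 in F CP2, 17.7 to 26.8 in M vehicle and 23.3 to 30.1 in M CP2. Every pair of the 8 groups overlapped in range, and the means lay between 22.0 ± 1.48 CPM in WT vehicle M (SD, n = 3) and 26.7 ± 3.19 in KO CP2 M (SD, n = 5). The KO difference was 0.07 under vehicle (95% interval -0.09 to 0.23) and 0.16 under CP2 (SE 0.067, unadjusted p = 0.0196, edgeR adjusted p = 0.112). The 95% interval under CP2 ran from 0.03 to 0.30.

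The receptor Csf1r was higher in KO under CP2 by 0.20 (SE 0.063, edgeR adjusted p = 0.0274). It stood at 119 ± 12.1 CPM in KO CP2 M and 91.1 ± 7.66 in WT CP2 M (SD, n = 5), and at 103 ± 14.0 and 102 ± 4.80 CPM in the F groups (SD, n = 5). Il34, the other ligand of Csf1r and a product of neurons, gave -0.21 (SE 0.083, adjusted p = 0.103) in the same comparison. Genes most like Csf1 over the 36 libraries were the astrocyte gap junction gene Gja1 (r = 0.741), the tetraspanin Cd9 (r = 0.736) and the urea transporter Slc14a1 (r = 0.72).

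Il1b (ENSMUSG00000027398), the cytokine released after inflammasome cleavage, held 0 to 41 reads. KO vehicle F held 41, 4, 6, 3 and 7 reads and WT vehicle F 9, 16, 8, 4 and 18, so that group's mean rested on 1 library, L246. The KO difference was 0.62 under vehicle (95% interval -0.83 to 2.07) and -0.049 without L246. Under CP2 it was 0.44 (95% interval -0.80 to 1.67), where KO libraries held 1 to 33 reads and WT libraries 0 to 17. Il1bos lies on the opposite strand of Il1b. The receptor Il1r1 had group means of 5.83 to 7.76 CPM, and Il1a, the other agonist of that receptor, 0.487 to 0.971 CPM, with neither called.

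Tnf (ENSMUSG00000024401), a cytokine of activated microglia and macrophages, was too low to measure. It had 78 reads over the 36 libraries, 0 reads in 21 of them and at most 12 in any, did not pass the filter and was not tested. All 3 WT vehicle M libraries were at 0, which allows a level of up to 0.0183 CPM over that group (3 counts), counting error only. The highest group mean was 0.0650 CPM in KO CP2 F (0, 0, 0, 11 and 6 reads), followed by 0.0541 CPM in WT CP2 M, 0.0498 in KO vehicle M and 0.0457 in KO CP2 M (0, 0, 12, 4 and 1 reads), all within each other's ranges. WT CP2 M also held a library with 12 reads (L259). Its receptors were measurable: Tnfrsf1a had group means of 11.9 to 17.9 CPM and Tnfrsf1b 4.67 to 6.34 CPM. Averaged over F and M, neither was called, with Tnfrsf1a at 0.28 (SE 0.101) in KO against WT under CP2 (edgeR adjusted p = 0.0684). Within M, Tnfrsf1a was higher by 0.60 (SE 0.144, edgeR adjusted p = 0.00532).

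The choice of a count limit decided how many of the 10 were set aside. By the rule used here (no pass of the filter, or a mean under 10 reads in all 8 groups), only Tnf was. Raising the limit to a mean of 30 reads set aside 5: Ccl2, Ccl3, Ccl4, Il1b and Tnf. The 3 genes above 100 reads in every group were Cx3cl1, Cxcl12 and Csf1. In WT brain, averaged over F and M, edgeR called 0 of the 9 tested genes with CP2, with 0 at an unadjusted p under 0.05, where 0% of all genes were called (1031 of 25601 at an unadjusted p under 0.05, and 0 called by DESeq2). Within M, Ccl2 had an unadjusted p of 0.0487 by edgeR (-2.76, 95% interval -5.51 to -0.016, adjusted p = 1), from 22, 16 and 6 reads under vehicle and 0, 0, 8, 0 and 1 under CP2.

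Other genes of the same pathways were counted against the same background (2.87% of all genes higher and 3.8% lower under vehicle, 5.54% higher and 6.07% lower under CP2). Of 34 tested ligands outside the 10 (49 listed), 2 were higher and 0 lower in KO under vehicle, and 2 were higher and 1 lower under CP2 (median 0.21, all genes 0.01). Ccl17, a T cell chemokine, was higher under vehicle by 1.78 (SE 0.373, edgeR adjusted p = 0.00255), with group means of 1.83 CPM in KO F and 0.504 in WT F, and 1.35 in KO M and 0.415 in WT M. It was higher by 1.03 under CP2 (SE 0.321, adjusted p = 0.0295). Ccl6, a chemokine of myeloid cells, was higher in KO under CP2 by 0.86 (SE 0.181, edgeR adjusted p = 0.00109). Ccl27a was lower (-0.33, adjusted p = 0.0269), and Ccl25 was higher under vehicle (0.41, adjusted p = 0.0300). Ccl9, a macrophage chemokine, rose with CP2 in KO by 0.71 (SE 0.195, edgeR adjusted p = 0.0290).

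Of 15 tested receptors and antagonists (18 listed), 0 were called in KO against WT under vehicle and 2 were higher under CP2, Csf1r and the chemokine scavenger Ackr1 (0.30, SE 0.089, edgeR adjusted p = 0.0226). Of 24 NF-kappaB regulators and targets, 0 were called under vehicle and 1, the kinase gene Ikbkb, was lower under CP2 (-0.31, SE 0.062, edgeR adjusted p = 0.000814), with 9 of 24 positive and a median of -0.07. Of 28 interferon-stimulated genes, 2 were higher under vehicle and 5 under CP2, with 0 lower. Under CP2, 27 of the 28 had a positive log2 fold change on average (median 0.40, all genes 0.01). Within F 22 were positive (median 0.187) and 2 were higher, where 2% of all genes were called. Within M 26 were positive (median 0.485) and 4 were higher, where 9.99% of all genes were called. Ifit3 stood at 15.7 CPM in KO CP2 F and 7.32 in WT CP2 F, and at 15.6 and 6.37 CPM in M, a difference of 1.20 (SE 0.169, edgeR adjusted p = 1.69e-05). Ifit2 (0.46, adjusted p = 0.000144) and Oasl2 (0.73, adjusted p = 0.0107) were higher too. These counts describe the lists and were not tested as sets.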

How the data were processed

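RNA from 36 mouse brain samples was sequenced from polyA-enriched libraries, per the labels' protocols. The deposited file holds raw read counts per Ensembl gene, made by the authors with STAR and HTSeq on GRCm39 per the submitters' processing notes. Versions, annotation release, strandedness and read filters are not given in the sources used here. Its 5 summary rows, 12.0% to 19.6% of the table's counts, were left out. A table of Ensembl gene names matched 52073 of 56980 identifiers (91.4%, holding 97.2% of counts), and GENCODE M21 exon lengths (GRCm38) gave CPM per kb.

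Counts were tested with edgeR 4.0.16 (limma 3.58.1) in R 4.3.3: TMM scaling, filterByExpr on the 8 groups (25601 genes), estimateDisp, robust glmQLFit and glmQLFTest, with 1 coefficient per group over all 36 samples and 20 contrasts. Benjamini-Hochberg adjustment ran over all tested genes of each contrast, and calls used an adjusted p under 0.05. SE is the absolute log2 fold change divided by the root of F. The steps were tested on simulated data. Log2 CPM for correlations used a prior count of 2 and candidates whose mean was 1 CPM or more.

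The genes and lists were chosen with earlier results of these data known. Named were all 10 genes, the label checks, receptors and paired ligands, up to 3 called genes each way per pathway list and averaged contrast, and the 3 genes most correlated with each tested one. The cell markers P2ry12, Tmem119, S100a8, Cd3e and Ly6c2 are named outside this rule. Because the titles show a separate number per sample but the labels do not state that each is a separate animal, p-values measure the spread between samples. Intervals on counts cover counting error only. The 66 pairs of samples within groups all differed beyond sampling noise (mean chi-square per gene 13.5 to 143). Alternatives were DESeq2 1.42.0, RLE size factors, no filter, only the groups compared, 3 covariates (share of reads in no gene, hippocampal marker score, title number) and leaving out each sample. Leaving out L266 and L291 together was chosen after seeing the data. RefSeq promoter windows were cut to 250 bases.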

Additional observations from a re-analysis of the deposited data

Results flagged for a closer look

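Within the 6 groups of 5 libraries, 60 combinations of gene and group were searched for a library far from the other 4, and 8 were found. The limit used gives about 1 in 20 for normally distributed values. For thin counts with many libraries at 0 the rate is not known, so 8 of 60 cannot be set against it. In 1 case the gene was well counted: Cxcl12 in KO CP2 F stood at 74.8 CPM in L233, where the other 4 libraries held 53.6 to 58.3 CPM. Without L233, CP2 against vehicle in KO gave an averaged Cxcl12 difference of 0.24, the lowest of the 36 values, and its call was lost. Cxcl10 stood at 1.07 CPM (51 reads) in the WT CP2 M library L259, with the others at 0.0760 to 0.345 CPM. The same library held 0.251 CPM of Tnf (12 reads), with the others at no more than 0.0191 CPM.

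Il1b stood at 0.804 CPM (41 reads) in the KO vehicle F library L246, against 0.0515 to 0.121 CPM in the others. For Ccl2, L252 of WT vehicle F held 0.230 CPM (12 reads) with the others at 0, and L263 of WT CP2 M held 0.177 CPM (8 reads) with the others at no more than 0.0211 CPM. For Tnf, L278 of WT vehicle F held 0.134 CPM (7 reads) and L272 of WT CP2 F 0.0776 CPM (4 reads), each with the other 4 libraries of its group at 0.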

How the results depend on the processing

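No paired analysis was possible because no title number is shared between groups. The KO against WT calls of Cx3cl1 and Ccl12 under CP2, averaged over F and M, held under all 8 alternatives and without each of the 36 libraries. Under vehicle the number of the 9 genes called fell from 1 to 0 without the filter and with the share of reads in no gene as a covariate, and ran from 0 to 1 with a library left out. For CP2 in KO it fell from 1 to 0 with that covariate, with the title number as a covariate and with only the groups compared, and ran from 0 to 1 with a library left out. The cause of these falls was not tested. Within KO, title numbers did not overlap between CP2 and vehicle in either letter. Genes too low to measure rose from 1 to 5 at a mean of 30 reads.

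Directions reversed only for values that were not called. With the share of reads in no gene as a covariate, Cx3cl1 for CP2 in KO gave -0.13 and the Csf1 interaction -0.0031. With the title number as a covariate, Cxcl10 for CP2 in KO gave -9e-04 and Ccl12 for CP2 in KO M gave -0.13, which was -0.012 with the hippocampal marker score. Leaving out a library, Cxcl10 ran from -0.033 to 0.39 (KO against WT, vehicle) and from -0.58 to 0.034 (CP2 in WT). Cxcl12 ran from -0.024 to 0.054 (KO against WT, CP2). For CP2 in KO, Cx3cl1 ran from -0.0051 to 0.094, and Ccl12 in M from -0.14 to 0.46. Il1b ran from -0.049 to 1.34 (KO against WT, vehicle). 

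RLE scaling in edgeR moved the median of all genes by at most 0.0242 (log2) in any comparison. It moved the share of calls that were higher from 40.8% to 50.7% (KO against WT, F vehicle) and from 35.8% to 43.7% (F CP2). DESeq2, which changes both scaling and test, gave 54.8% and 49.1%. Fitting only the groups compared could not give the interaction. The intervals of the 6 tested genes with thin counts span several fold, and Tnf has none.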
